A study of Drosophila melanogaster with 4 samples.

Results

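The subject is the landscape of ORC2-bound regions along chromosome arm 2L of Drosophila melanogaster, read from the telomere (position 1) towards the centromere. Members were all regions that the authors' combined list places on 2L: 1202 of the 6587 regions of the series, or 18.2%. Their support came from the lists of the 2 libraries, which hold 1482 peaks (replicate 1, of 8247) and 1850 peaks (replicate 2, of 10621) on this arm. Both libraries were chromatin immunoprecipitations with a polyclonal rabbit antibody to ORC2, from salivary glands of wandering third-instar larvae labelled SuUR mutant (strain SuUR - Orr-Weaver, with outcross given as 3 and a GFP tag listed under transposon). They came from a first and a second chromatin extraction, and nothing in the labels says that these were separate animals or days. Among the entries not analysed here, a ChIP and an input carry the wild-type label (Oregon-R), which leaves some doubt about the genotype behind the lists; it is given as labelled. Positions are in FlyBase release 5.1, and no gene is named because no annotation of that release was used.

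ORC2 is a subunit of the origin recognition complex, which binds DNA and loads the replicative helicase before DNA synthesis can start. In flies the complex has no strict sequence motif, and it is known to favour open chromatin near active promoters. Salivary gland cells replicate their DNA many times without dividing and build polytene chromosomes, in which some late-replicating stretches remain at a lower copy number than the rest. The product of SuUR is needed for that underreplication, so its mutant lets such stretches be copied more completely. Copy number is not part of these lists.

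Most regions of 2L were short, and the overlapping peaks of the libraries that made them up had close midpoints. The 1202 regions had a median width of 445 bp (quartiles 282 and 685) and covered 665 kb, or 2.90% of an arm of 22.96 Mb. In replicate 1, 1279 of 1482 peaks (86.3%, exact binomial 95% interval 84.4 to 88.0) overlapped a peak of replicate 2, against 85.1% over all arms and scaffolds. In replicate 2, 1234 of 1850 (66.7%, 64.5 to 68.8) overlapped one of replicate 1, against 63.1% in all. Both shares on 2L were thus near those of the whole lists. A region was made of 1 peak from each library in 1106 cases (92.0%). There the midpoints of the 2 peaks lay a median of 40.2 bp apart, with 873 pairs (78.9%) within 100 bp. Every region overlapped peaks of both libraries, so with short regions the close midpoints follow in part from that overlap. The edges often differed: the stretch common to both peaks was a median of 63.8% of the region (quartiles 43.5% and 80.3%). The replicate 2 peak was the wider of the pair in 761 of 1106 regions, and it enclosed the replicate 1 peak in 535, whereas the opposite nesting was seen in 134. Where a library had several peaks in a region, replicate 1 had the larger number in 66 regions and replicate 2 in 24. With 2 libraries, no standard deviation or test between samples is given, and intervals cover counting error alone and treat neighbouring regions as independent.

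The score, the authors' own value for each peak with no stated unit, differed in level between the libraries along the whole arm. Its median over the 1202 regions was 1.77 in replicate 1 (quartiles 1.54 and 2.11) and 2.32 in replicate 2 (1.92 and 2.81). Replicate 2 scored higher in 1073 regions (89.3%), and the median ratio of replicate 2 to replicate 1 was above 1 in 23 of 23 bins of 1 Mb, from 1.21 to 1.57. Across the 1202 regions, which share their libraries and are not independent, Spearman's rho between the replicate scores was 0.69. Where a region named below had 1 peak from each library, its combined score was the mean of the 2 replicate scores. Replicate 2 scores were higher and more widely spread, so a ranking by combined score leans on replicate 2 and is not separate support.

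The telomeric 10 Mb of 2L were the densest part of the arm. They held 635 regions (63.5 per Mb, exact Poisson 95% interval 58.7 to 68.6), the next 10 Mb held 464 (46.4 per Mb, 42.3 to 50.8) and the rest of the arm held 103 (34.8 per Mb, 28.4 to 42.2). The 3 intervals did not overlap. Counts per 100 kb window varied more than Poisson counts would (ratio of variance to mean 3.70), so the intervals are too narrow to test between the parts. Replicate 1 gave 78.0, 56.5 and 46.3 peaks per Mb over these parts and replicate 2 gave 94.6, 73.0 and 58.7, the same order. The first region, ORC1, began 5681 bp from the start of the arm, and its score was 2.99 in replicate 1 and 4.96 in replicate 2. The last, ORC1202, ended at 22961212, with scores of 1.33 and 1.98. Bins of 1 Mb held between 16 and 74 regions with a median of 56. The highest count, 74, was reached from 2 to 3 Mb and again from 6 to 7 Mb, and 7 of the first 10 bins held 60 or more.

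The decline was not even. From 5 to 10 Mb the arm held 336 regions (67.2 per Mb, 60.2 to 74.8), and gaps of at least 100 kb took up 8.27% of this stretch. The bin from 15 to 16 Mb then held 28 regions and that from 17 to 18 Mb held 20 (exact Poisson 95% interval 12.2 to 30.9), whereas the bin between them held 67 (51.9 to 85.1). Counts in the single lists moved in parallel, with 38, 86 and 33 peaks in replicate 1 and 46, 100 and 42 in replicate 2. The centromeric bin, from 22 Mb to the end of the arm, had the lowest count, 16 regions.

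**Figure D1:**
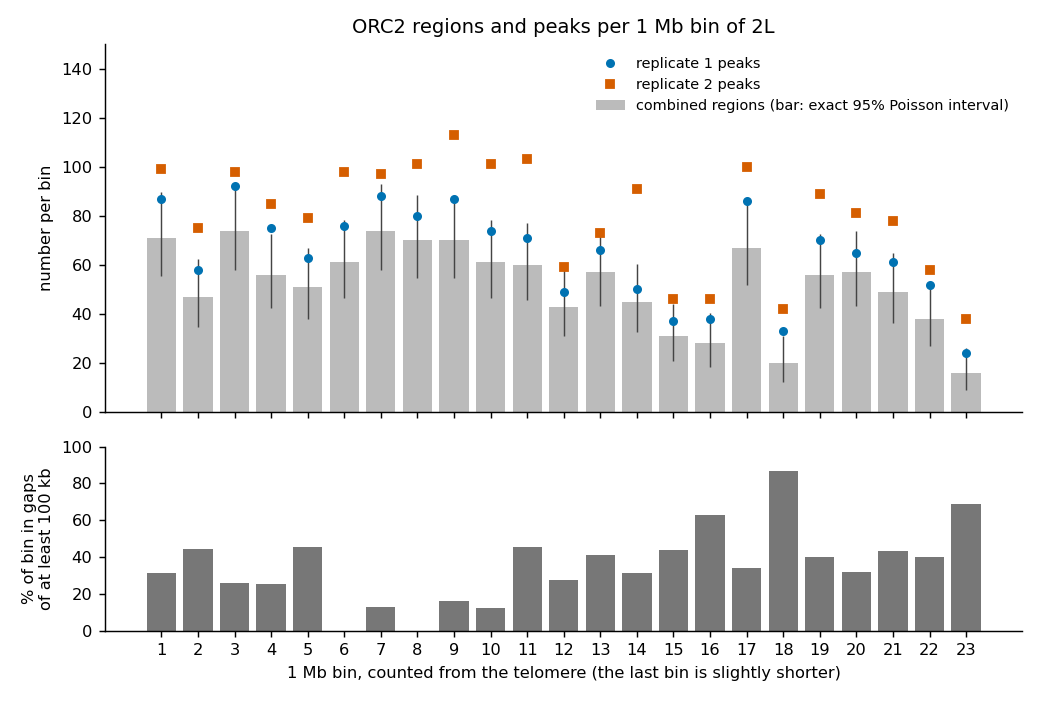
Numbers of ORC2 regions (bars, with exact 95% Poisson intervals) and of peaks in each replicate (points) per 1 Mb bin of 2L, above the percentage of each bin that lay in gaps of at least 100 kb. Bin 17 stands at 67 regions between bins 16 and 18 with 28 and 20, and bin 18 has the largest gap share, 86.6%.

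Region width and replicate support also varied along the arm, and the 3 bins with the fewest regions had the widest ones. The median width per bin ran from 346 bp (7 to 8 Mb) to 846 bp (17 to 18 Mb), and the next widest were the bins from 22 Mb (684 bp) and from 15 to 16 Mb (670 bp). The share of replicate 1 peaks with a partner ran from 63.6% (17 to 18 Mb, 21 of 33 peaks, exact binomial 95% interval 45.1 to 79.6) to 93.9% (11 to 12 Mb). For replicate 2 the lowest share was 42.1% in the bin from 22 Mb and the next was 50.5% from 13 to 14 Mb, where replicate 2 had 91 peaks and replicate 1 had 50.

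Gaps of at least 100 kb cut the arm into islands of very unequal size. There were 48 gaps with a median length of 147 kb, together 8.08 Mb or 35.2% of the arm. The shortest measured 101 kb, and the longest spacing below the limit was 99.6 kb. Between and beside them lay 49 islands with a median of 16 regions, and outside the gaps the density was 80.8 regions per Mb. The largest island, from 6255766 to 8536234, ran for 2.28 Mb with 170 regions (202 peaks in replicate 1 and 251 in replicate 2). Its neighbour on the telomeric side, from 4810122 to 6127753, held 105 regions over 1.32 Mb. In all, 20 islands of at least 20 regions held 992 regions (82.5%). At the other extreme, 8 islands consisted of a single region, and 5 of these (ORC887, ORC888, ORC967, ORC986 and ORC994) lay between 15 and 19 Mb.

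The gaps were seen in each library. Of the 48 gaps, 39 held no peak of replicate 1, 21 none of replicate 2 and 19 none of either. A stretch of at least 100 kb free of replicate 1 peaks remained in 46 of them, one free of replicate 2 peaks in 39, and one free of both in 38. Called on each list alone, replicate 1 had 46 gaps (7.80 Mb) and replicate 2 had 41 (6.33 Mb). Their common length was 6.17 Mb, equal to 79.1% of the replicate 1 gaps and 97.5% of the replicate 2 gaps. The libraries share most of their peaks, so this coincidence follows in part from the overlap already described. Of the 10 longest gaps, 7 lay outside the cluster at 15 to 18 Mb. In order of length they ran from 14706708 to 14995494 (289 kb), 11528337 to 11806105 (278 kb), 12722701 to 12974006 (251 kb), 22472732 to 22689940 (217 kb), 602624 to 815793 (213 kb), 10517393 to 10728910 (212 kb) and 20429559 to 20638549 (209 kb). The gaps of 251, 213 and 212 kb held no peak of either library, and those of 217 and 209 kb held 1 peak of replicate 2 each. The first of the list held 1 peak of replicate 1 and 4 of replicate 2. The gap of 278 kb held 2 peaks of replicate 1 and 1 of replicate 2, and 165 kb of it remained free of both. By position, 15 gaps lay in the first 10 Mb (21.4% of it), 24 in the next 10 Mb (44.5%) and 9 beyond (50.4%).

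**Figure D2:**
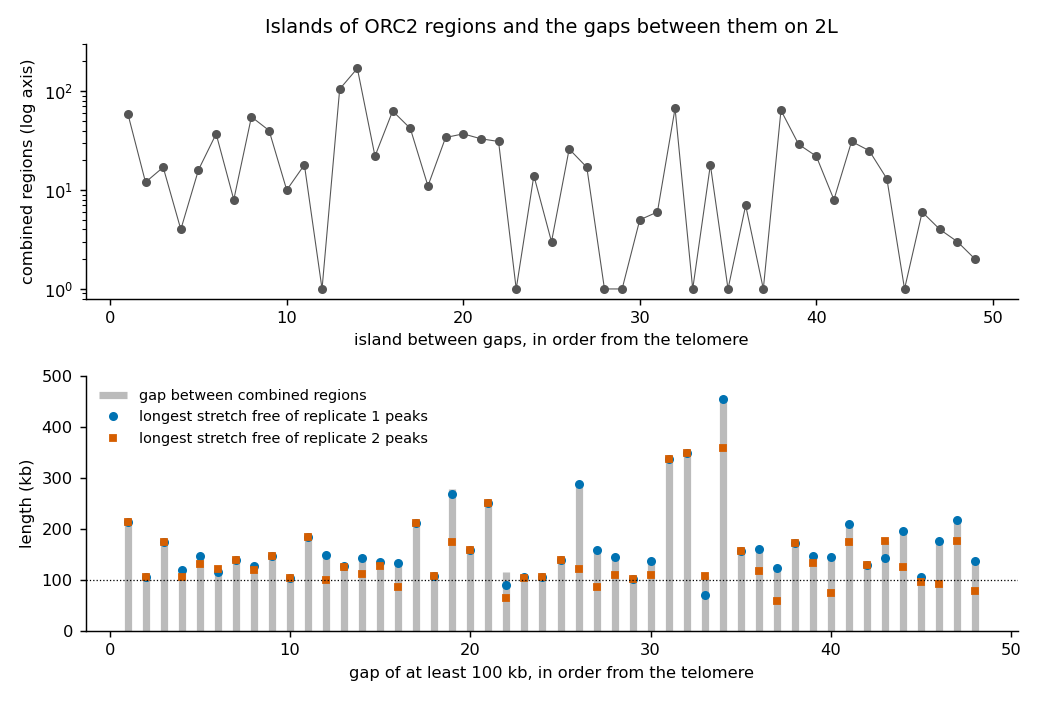
Number of combined regions in each of the 49 islands of 2L (upper panel, log axis) and length of the 48 gaps between them (lower panel, grey), with the longest stretch inside each gap that is free of peaks of replicate 1 or 2. The 3 longest gaps, of 337, 350 and 461 kb, stand close together, and the dotted line marks 100 kb.

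The longest gaps of the arm were gathered around 15 to 18 Mb. From 15340142 to 18443026, a stretch of 3.10 Mb, 11 gaps added up to 2.24 Mb or 72.1% of the sequence. These gaps held 3 peaks of replicate 1 and 17 of replicate 2. None had a partner, since gaps are by definition free of shared regions. That stretch begins and ends with a gap, which raises the share. Between the fixed limits of 15 and 18 Mb, 61.1% lay in gaps. Between 15 and 18 Mb the density was 38.3 regions per Mb against 54.5 on the rest of the arm, a ratio of 0.704. Replicate 1 gave 0.788 and replicate 2 gave 0.753. The stretch was chosen for its long gaps, so these ratios describe the choice and are given without a test. The 3 longest gaps of 2L lay here: 17501778 to 17962946 (461 kb), 16910492 to 17260603 (350 kb) and 15914788 to 16251510 (337 kb). The latter pair held no peak of either library. ORC966 and ORC967 bordered the gap of 350 kb. Their replicate 1 peaks were 12 and 34 bp wide, so their support there was thin.

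Before the longest gaps, the arm was reduced to isolated regions. ORC887 (15498839 to 15499320) stood alone between gaps of 159 and 145 kb and scored 3.23 in replicate 1 and 4.34 in replicate 2. ORC888 (15643830 to 15644121) followed, between gaps of 145 and 101 kb, with scores of 2.65 and 4.09. Both regions scored above the arm's median in each library. Then came small islands of 5 regions (15745128 to 15771225) and of 6 regions packed into 5.97 kb (15908820 to 15914787). The latter was covered by ORC2 regions over 4.13 kb and was called as 7 peaks in replicate 1 and 6 in replicate 2.

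A dense island lay between the gaps of 337 and 350 kb. From 16251511 to 16910491 it held 67 regions in 659 kb (102 per Mb), with 86 peaks in replicate 1 and 100 in replicate 2. Its median score was 1.73 in replicate 1 and 2.28 in replicate 2, and its median width was 447 bp, both close to those of the whole arm. The count of 67 for the bin from 16 to 17 Mb came wholly from this island, since the rest of the bin lay in the gaps on either side.

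The island before the longest gap differed from the other islands of at least 10 regions in width and coverage. From 17368587 to 17501777 (133 kb) it held 18 regions with a median width of 900 bp, and regions covered 17.2% of it. Among the 29 other islands of at least 10 regions, the widest median was 773 bp and the highest coverage 7.79%. It held 3 of the 10 widest regions of 2L: ORC981 (17447725 to 17451504, 3780 bp, the widest of the arm), ORC982 (17471426 to 17474610, 3185 bp) and ORC983 (17475170 to 17478110, 2941 bp). These 3 wide regions scored low in replicate 1, at 1.58, 1.18 and 1.24, and at 2.82, 1.85 and 1.62 in replicate 2. Of the 18 regions, 15 scored below the arm's median in replicate 1 and 10 did in replicate 2. The island's median score in replicate 1, 1.39, was below that of each of the 29 others (lowest 1.56), while in replicate 2 it was 2.19. The island was singled out after its values were seen, so these ranks are a description. Its outer regions were ORC968, with scores of 2.71 and 7.38, and ORC985, with 1.69 and 3.45.

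The longest gap itself held single-library peaks, which by the definition of a gap cannot overlap between the libraries. Replicate 1 had 2 peaks of 228 and 216 bp in the first 5.49 kb of the gap, with scores of 1.49 and 1.47. Replicate 2 had 4 peaks between 17589921 and 17603464, with scores of 5.19, 2.82, 2.31 and 3.88 in order of position. A stretch of 359 kb remained free of both. On the far side stood ORC986 (17962947 to 17963740), alone, with scores of 2.56 and 3.49. After a further gap of 156 kb without any peak came ORC987 (18119579 to 18119866), which scored 7.08 in replicate 1 and 9.40 in replicate 2. It had the second highest combined score of the arm.

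**Figure D3:**
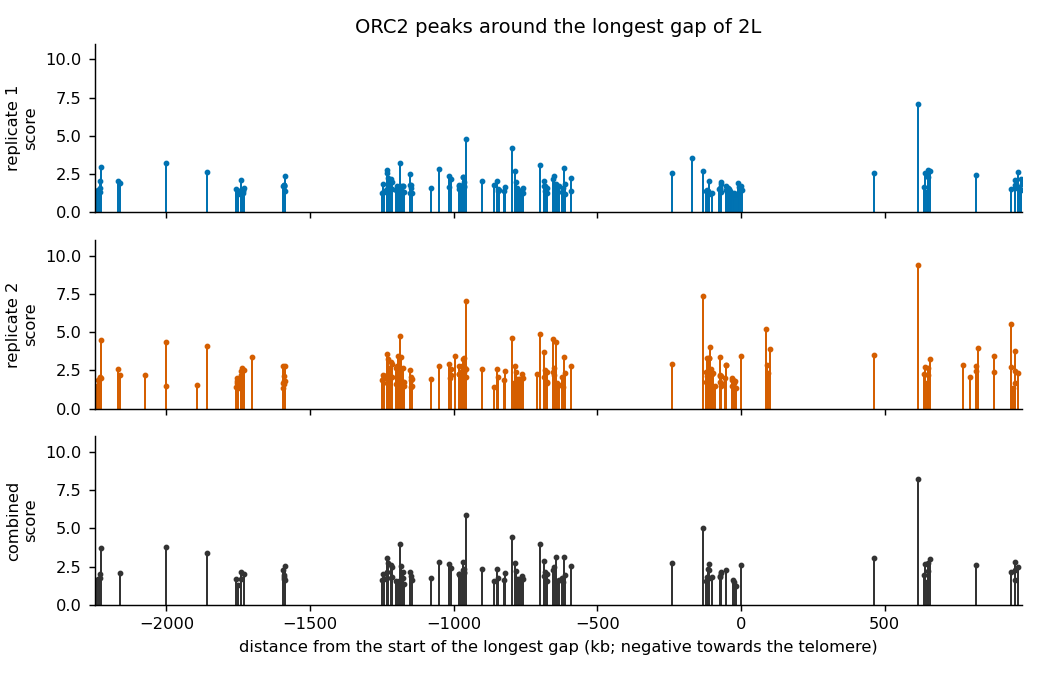
Score of each peak (vertical lines) of replicate 1, replicate 2 and the combined list against distance from the start of the longest gap of 2L, in kb. The dense island of 67 regions lies to the left, apart from the gap, the island of 18 regions ends at 0, and the tall line past the gap is ORC987, with scores of 7.08 and 9.40.

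The proximal end of the arm was sparse, and it held the region with the highest combined score. The last 2 Mb had 27.0 regions per Mb against 54.8 on the rest, a ratio of 0.493 (exact conditional 95% interval 0.368 to 0.648), with 0.567 (0.444 to 0.714) in replicate 1 and 0.574 (0.462 to 0.705) in replicate 2. Replicate support was lower too: 77.6% of replicate 1 peaks there had a partner (66.6 to 86.4) against 86.8% elsewhere, and 57.3% of replicate 2 peaks (46.8 to 67.3) against 67.2%. The first interval ends just below the value of the rest of the arm and the second includes it. The final 4 islands, from 22131305 to the end, held 6, 4, 3 and 2 regions. The lists hold no read coverage, so where reads could be placed was not assessed, and sparse binding cannot be told apart from sparse mapping here.

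Region ORC1173 (21397236 to 21397556, 321 bp) had the highest score of 2L, 10.2 in replicate 1 and 8.74 in replicate 2. Its rank among the 1202 regions was 1 in replicate 1 and 7 in replicate 2. Among the 10 regions with the highest combined score it was the 1 case in which replicate 1 scored above replicate 2, as it did in 129 of all 1202 regions. Its peaks were 247 bp wide in replicate 1 (21397297 to 21397543) and 321 bp in replicate 2, the former lying within the latter. The 3 regions before it scored far lower. ORC1170 (1038 bp wide) scored 1.72 and 1.88, and ORC1171 scored 2.21 and 2.94. ORC1172 (1035 bp), which lay 52.0 kb before ORC1173, scored 1.35 and 2.74.

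Past ORC1173 the arm held no shared region for 176 kb, up to ORC1174 at 21573340. Replicate 2 had no peak in this gap, and replicate 1 had a single peak of 92 bp at 21540919 to 21541010 with a score of 3.60. On the telomeric side, each library had a very short unshared peak in the 52.0 kb before ORC1173: one of 3 bp at 21379961 in replicate 1 (score 1.52) and one of 14 bp at 21380215 in replicate 2 (score 3.02). The proximal part of 2L is known to carry the tandemly repeated histone genes, and where they lie in this release was not looked up here.

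**Figure D4:**
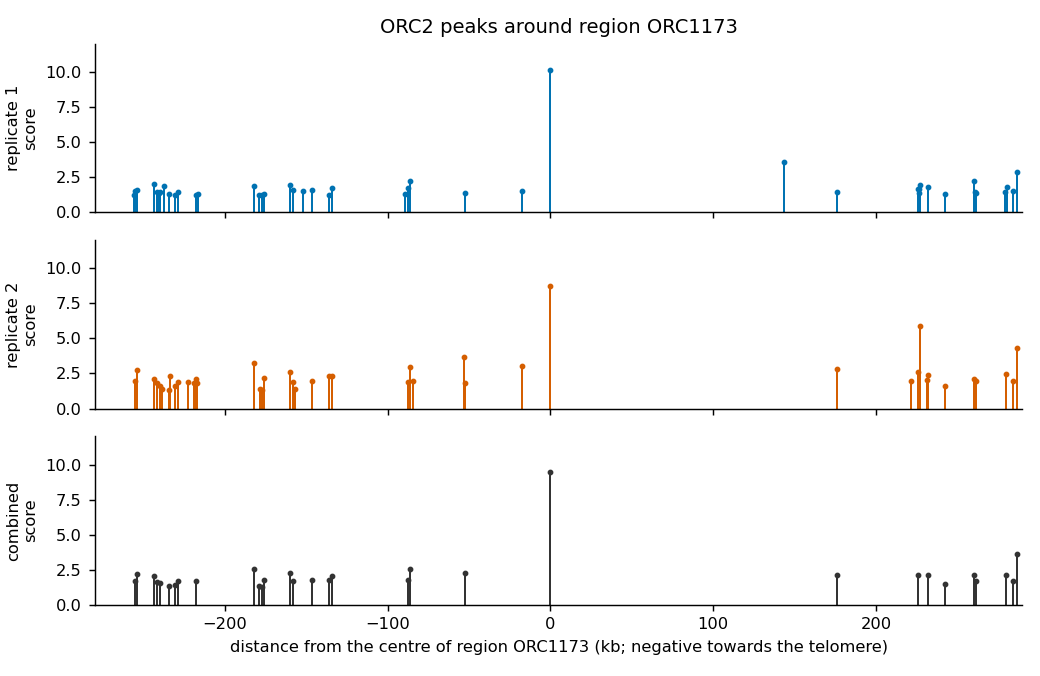
Score of each peak of replicate 1, replicate 2 and the combined list against distance from the centre of ORC1173, in kb. ORC1173 stands at 10.2 and 8.74 in the 2 libraries, and the 176 kb beyond it hold a single peak of replicate 1 and none of replicate 2.

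At short range the regions were clustered. Neighbouring regions of 2L were a median of 5.84 kb apart (quartiles 1.73 and 16.7 kb), and 225 of 1201 spacings (18.7%) were at most 1 kb. The mean spacing, the span divided by the number of regions, was 19.1 kb. Randomly placed regions would also have a median below their mean. Linking neighbours within 10 kb gave 417 runs: 168 regions stood alone, 397 were in runs of 2 to 4, and 637 (53.0%) were in 95 runs of at least 5. These 95 runs spanned 2.24 Mb, or 9.76% of the arm. The runs with most regions were 6062549 to 6100594 (38.0 kb) and 6453592 to 6498882 (45.3 kb), with 13 regions each. They were followed by 12497641 to 12547272 and 18936144 to 18996360, with 12 each. Runs of 11 were found at 5278392 to 5307022 and at 16519933 to 16543557, the latter inside the dense island of the sparse stretch. In these 6 runs, replicate 1 had from 11 to 15 and replicate 2 from 11 to 13 overlapping peaks.

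Windows of 100 kb showed the same. Of 230 windows, 41 (17.8%) held 10 or more regions and together 509 regions (42.3%), while 33 held none. The densest was 6000001 to 6100000 with 19 regions (20 peaks in replicate 1 and 24 in replicate 2), followed by 5000001 to 5100000 and 12000001 to 12100000 with 17, and by 100001 to 200000 and 2800001 to 2900000 with 16. Of the 33 windows without a region, 32 had no peak of replicate 1 and 25 none of replicate 2. The first 10 Mb had 9 of these empty windows and the next 10 Mb had 19. The rest of the arm, much shorter at 2.96 Mb, had 5. The libraries ranked the windows alike by peak count (Spearman's rho 0.95 over 230 windows of the same 2 libraries).

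Regions standing alone scored higher than regions in runs, in both libraries. The median score of the 168 lone regions was 2.00 in replicate 1 and 2.65 in replicate 2. For runs of 2 to 4 regions it was 1.79 and 2.36, and for runs of at least 5 it was 1.72 and 2.19, so the order was the same in each library. The distributions overlapped widely, with quartiles of the combined score of 1.98 and 3.03 for lone regions and 1.69 and 2.34 for runs of at least 5. Lone regions were also narrower, with a median of 322 bp against 466 and 453 bp. These are descriptions over regions of the same 2 libraries, and no test was made.

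**Figure D5:**
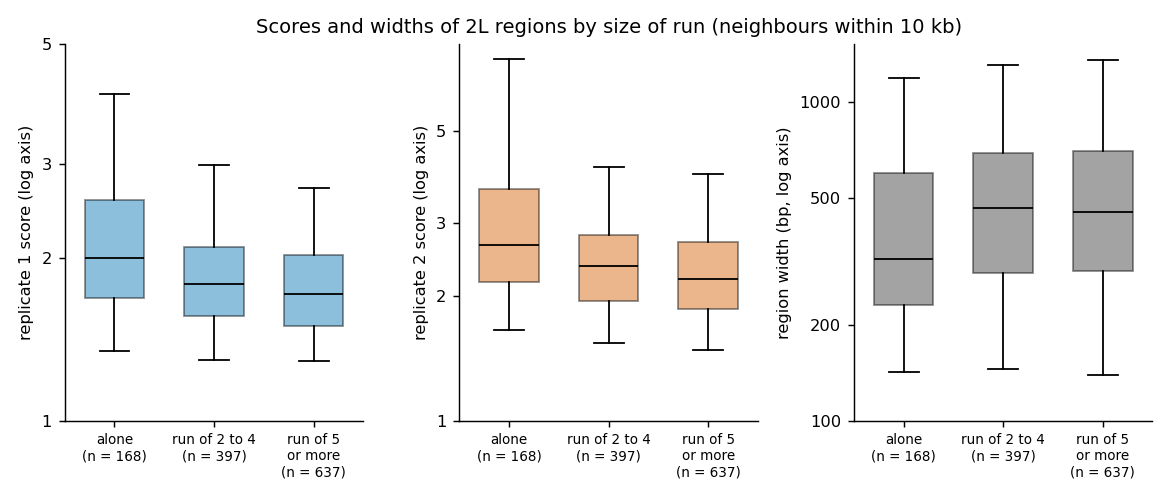
Replicate 1 score, replicate 2 score and width of the 1202 regions of 2L by the number of regions in their run (boxes, quartiles with the median; whiskers, 5th to 95th percentile; log axes). Median scores fall from 2.00 to 1.72 in replicate 1 and from 2.65 to 2.19 in replicate 2 from lone regions to runs of at least 5, with wide overlap.

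The 10% of regions with the highest scores were found at the borders of gaps more often than the rest, without a steady rise over the lower scores. In all, 88 regions (7.32%) bordered a gap of at least 100 kb, 8 of them on both sides. In the 10% of regions with the highest combined score, 18 of 121 did (14.9%, exact binomial 95% interval 9.06 to 22.5), against 70 of 1081 other regions (6.48%, 5.08 to 8.11). By the replicate 1 score the shares were 23 of 121 (19.0%, 12.4 to 27.1) and 65 of 1081 (6.01%), and by the replicate 2 score 19 of 121 (15.7%, 9.73 to 23.4) and 69 of 1081 (6.38%). Over the 10 score deciles the share was uneven. By combined score it was 12.5% in decile 7, 3.33% in decile 8 and 12.5% in decile 9, and by replicate 1 score it was 14.2% in decile 7 (8.47 to 21.7) and 5.83% in decile 9. Border regions had median scores of 1.98 (replicate 1) and 2.62 (replicate 2), and the rest had 1.76 and 2.29. Their median width, 455 bp, was close to the 443 bp of the rest.

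The 10 regions with the highest combined score illustrate this. ORC1173, ORC987, ORC841 (14011404 to 14011896, scores 5.30 and 7.73) and ORC277 (4661011 to 4661246, 4.21 and 8.25) bordered a gap of at least 100 kb, and ORC277 stood alone between gaps of 184 and 149 kb. ORC343 (5624119 to 5624344, 5.18 and 9.25) had 76.6 and 99.6 kb free on its sides, just short of the limit. ORC815 (13332860 to 13333068, 4.04 and 10.8), ORC588 (9342060 to 9342173, 4.04 and 10.6) and ORC1024 (18776682 to 18776826, 3.06 and 11.2) stood alone with no neighbour within 10 kb. ORC861 (14588936 to 14589250, 4.14 and 8.75) was in a run of 2, and ORC235 (3648195 to 3648416, 4.28 and 8.49) was in a run of 5. All 10 were among the 10 highest of replicate 2, whereas 5 were among the 10 highest of replicate 1. The combined score of each was the mean of its replicate scores, and replicate 2 had the wider range. The closer match to replicate 2 is thus largely built in. ORC1024 rested on a peak of 5 bp in replicate 1 (18776771 to 18776775), so its support there was thin. The replicate 1 peak of ORC277 (4661081 to 4661112) was also narrower than the 36 nt reads.

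Regions of at least 1 kb numbered 130 (10.8%) and made up 29.1% of the covered length. They were about as frequent among lone regions (10.7%) as in runs of 2 to 4 (12.3%) and of at least 5 (9.89%). Besides the 3 already given, the 10 widest were ORC358 (5979880 to 5983588, 3709 bp, scores 1.65 and 1.72), ORC79 (1116222 to 1119571, 3350 bp, 1.86 and 1.84), ORC208 (3171904 to 3175071, 3168 bp, 2.65 and 3.79), ORC464 (7423517 to 7426037, 2521 bp, 2.06 and 2.42), ORC173 (2872805 to 2875293, 2489 bp, 1.73 and 2.73), ORC209 (3301820 to 3304266, 2447 bp, 1.99 and 2.49) and ORC397 (6479259 to 6481671, 2413 bp, 1.83 and 2.30). ORC208 and ORC209 were direct neighbours that faced each other across a gap of 127 kb, where replicate 2 had 1 peak and replicate 1 had none. Across the 1202 regions, score and width were weakly related (Spearman's rho -0.12), but the highest scores belonged mostly to narrow regions. The 10% with the highest combined score had a median width of 283 bp, against 423.5 to 503.5 bp in the other deciles. By the replicate 1 and replicate 2 scores, the median width of the top decile was 300 and 277 bp. Of the 10 regions with the highest combined score, 9 were narrower than the arm's median.

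Peaks found in a single library were short and mostly close to shared regions. On 2L they numbered 203 in replicate 1 and 616 in replicate 2. Median widths were 64 and 77.5 bp (replicates 1 and 2), while shared peaks had medians of 295 and 369.5 bp. Of these peaks, 59 (29.1%) and 169 (27.4%) were narrower than the 36 nt reads, against 51 (3.99%) and 13 (1.05%) of shared peaks. The nearest shared region was a median of 1.21 kb away for replicate 1 and 1.62 kb for replicate 2. Single-library peaks were also sparser in gaps than outside. In replicate 1, 12 lay in gaps (1.48 per Mb, exact Poisson 95% interval 0.767 to 2.59, against 12.8 outside). In replicate 2, 55 did (6.80 per Mb, 5.13 to 8.86, against 37.7). The ratio was 0.116 (exact conditional 95% interval 0.0587 to 0.207) in replicate 1 and 0.180 (0.134 to 0.238) in replicate 2. Gaps were defined by the lack of shared regions, and unshared peaks did not enter that rule. Peaks that lie close to shared regions must still be rare in stretches far from them. The ratios therefore restate that closeness in part, and their intervals treat clustered peaks as independent.

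Compared with 3L and X, the arms nearest in span, 2L was much alike in spacing and gaps. The density ratio was 0.949 to 3L (exact conditional 95% interval 0.877 to 1.03) and 0.982 to X (0.906 to 1.06), and both intervals include 1. The median spacing was 5.84 kb on 2L, 5.75 kb on 3L and 5.70 kb on X. Gaps of at least 100 kb numbered 20.9 per 10 Mb on 2L (15.4 to 27.7), 18.8 on 3L and 22.3 on X (16.6 to 29.4). The median width was 445, 432 and 426 bp. Among the 10% of regions with the highest score, the share at a gap border was 14.9% on 2L, 9.56% on 3L (exact binomial 95% interval 5.19 to 15.8) and 17.5% on X (11.2 to 25.5), against 7.32%, 6.65% and 8.37% of all regions. The share of regions in runs of at least 5 was higher on 2L, 53.0% (exact binomial 95% interval 50.1 to 55.8) against 44.3% on 3L (41.7 to 47.0) and 43.9% on X (41.1 to 46.8). The largest run was smaller, 13 against 21 and 18. Regions enter this class at least 5 at a time, so these intervals are too narrow. The runs numbered 41.4 per 10 Mb on 2L (exact Poisson 95% interval 33.5 to 50.6), 35.5 on 3L (28.4 to 43.7) and 31.2 on X (24.3 to 39.5), with overlapping intervals. With neighbours linked within 5 kb the shares were 17.3% on 2L, 17.5% on 3L and 15.6% on X, and within 20 kb they were 75.9%, 74.4% and 73.2%, with overlapping intervals. In replicate 1 the shares at 10 kb were 61.7% on 2L, 55.4% on 3L and 56.2% on X, and in replicate 2 they were 67.8%, 65.8% and 70.5%, so replicate 2 did not give 2L the highest share. Linking within 5 kb turned the order in replicate 1, with 25.6% on 2L (23.4 to 27.9), 31.7% on 3L (29.5 to 33.9) and 28.6% on X (26.4 to 31.0). In replicate 2 at 5 kb the shares were 39.8%, 39.0% and 44.3%. Within 20 kb they were 82.8% on 2L, 81.7% on 3L and 80.0% on X in replicate 1, and 84.0%, 85.9% and 87.5% in replicate 2. A share on 2L above both arms with intervals apart was thus seen only within 10 kb, in the combined list and replicate 1. Within 20 kb 2L was slightly ahead in those lists and lowest in replicate 2. The direction depended on the distance and on the list.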

How the data were processed

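ORC2 ChIP peaks had been called per library on FlyBase release 5.1, and each row names PeakSeq as its source, per the file headers. The aligner, control and caller settings were not given in the sources used here, and the deposited lists give a start, an end and the authors' score for each peak. The score has no stated unit and was used to describe and rank peaks. The lists hold no read counts, so depth is unknown. Positions are 1-based, as deposited.

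Overlap meant at least 1 bp. Where several peaks of a library overlapped a region, their scores were averaged. Regions were assigned to windows by midpoint. The arm was taken to span position 1 to the furthest peak end. Gaps were at least 100 kb between neighbouring combined regions, arm ends left out, islands the stretches between gaps, and runs chains of neighbours within 10 kb. Intervals (95%) were exact binomial, exact Poisson or exact conditional for a ratio of counts. The interval functions were tested on simulated data. Python 3.11.15, pandas 2.3.3 and scipy 1.17.1 were used.

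Named were the 10 highest-scoring and 10 widest regions, the 10 longest gaps, the runs and windows with most regions, and the regions near 21.4 Mb and at gap borders from 15 to 18 Mb. Members and rules were chosen with earlier results of these data known. Islands, the deciles at gap borders and the runs on other arms and lists were added later. No genome of this release was used, so no sequence is shown.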

Additional observations from a re-analysis of the deposited data

How the results depend on the processing

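Of 55 alternative values, 22 moved by more than a set tolerance. It was 1.5 times for counts, densities, lengths and the variance ratio, and the main value's 95% interval for shares, density ratios and rho, so values within it could still differ: the runs numbered 133 in replicate 2 and 139 in the union against 95, and the gaps 62 at or above the median score against 48. For the median width and the border score it was the SD between the medians of the 2 libraries. No paired analysis was possible because the lists form a single group of 2 libraries without a comparison between groups. Each library alone gave 64.5 and 80.6 features per Mb, 41 to 46 gaps, and a median width of 259 to 262 bp. The union of both lists gave 88.0 regions per Mb and a ratio of variance to mean per window of 5.81 (main value 3.70). Regions at or above the median score gave 26.2 regions per Mb, a ratio of variance to mean of 1.82, 8 runs of at least 5 regions, a median width of 429 bp and a rho between replicates of 0.44. A gap minimum of 50 kb gave 119 gaps (13.0 Mb) and one of 200 kb gave 10 (2.82 Mb). Windows of 50 and 200 kb left 143 and 4 empty, and linking within 5 kb gave 36 runs. Reciprocal overlap of 50% lowered the shared peaks to 54.3% and 43.5% in replicates 1 and 2, and peaks at or above their list's median gave 68.8% and 53.1%. Midpoints within 500 bp gave 69.9% in replicate 2. Each alternative picks its features by another rule, and what lay behind the moves was not tested. The ratios for the last 2 Mb and for 15 to 18 Mb stayed within their intervals in each alternative run. The median score of border regions, with alternatives chosen after seeing the data, was 2.25 at both 50 and 100 kb and 2.31 at 200 kb. Unknown depth limits any statement that a stretch lacks ORC2.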

Other observations

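Among the 67 single-library peaks inside gaps, 9 scored 4 or more, and all 9 were peaks of replicate 2. They were 47 to 237 bp wide, with a median of 102 bp. The highest were Rep2_ORC1315 at 14972971 to 14973066 (score 7.55) and Rep2_ORC1251 at 13770619 to 13770720 (7.28), the latter within the last kilobase of its gap. In replicate 2, consecutive peaks with scores of 4.62, 4.22 and 7.55 divided the gap from 14706708 to 14995494 (289 kb), and its longest free stretch there was 121 kb. Replicate 1 had 288 kb free in the same gap. The score of 4 was chosen after the values were seen.

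Exact score values recurred within a list. In replicate 1, 206 of 1482 peaks of 2L (13.9%) shared their score with another peak of the arm, and in replicate 2, 278 of 1850 did. Peaks with a recurring score had a median width of 112 bp in replicate 1 and 136 bp in replicate 2, against 282 and 284 bp for the rest. ORC815 and ORC588, among the 10 highest by combined score, shared the replicate 1 score of 4.04.

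Of the 129 regions that scored higher in replicate 1, 11 (8.53%) bordered a gap and 72 (55.8%) lay in runs of at least 5, against 7.32% and 53.0% of all regions. They were 380 bp wide at the median, and regions higher in replicate 2 were 453 bp. Among the 10% of regions with the highest combined score, 4 of 121 scored higher in replicate 1, in a ranking that leans on replicate 2.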
